A study of Canis lupus familiaris with 10 samples.

Results

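Removal of calcium for 18 h was followed in 2 lines of MDCK cells, an epithelial cell line of dog kidney origin, by setting each line's array at 18 h against its own array at 0 h. These are 4 of the 10 arrays of the study, chosen by their titles, and the comparison covers 10498 genes. One line overexpressed human BLT2 and is called BLT2 cells here, and the other was Mock-MDCK, called Mock cells. The 18 h arrays came from cells kept in SMEM, a calcium-free medium, and the 0 h arrays from confluent cells in DMEM with 10% fetal calf serum (FCS). The other 6 arrays held both lines after 2 h in SMEM and after 2 h back in DMEM, with or without 200 nM 12-HHT. The sources do not say whether a line is 1 clone or how strongly the receptor was expressed, and LTB4R2, which encodes BLT2, was not analysed here, so the BLT2 label was not checked on the arrays.

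Calcium holds the outer parts of cadherins in the shape that binds a neighbouring cell, so that epithelial cells deprived of it lose their adherens junctions, take tight junction proteins off the membrane and round up. Giving calcium back lets the junctions form again, and this calcium switch is a standard way to study their assembly in MDCK cells. BLT2 is a G protein-coupled receptor for 12-hydroxyheptadecatrienoic acid (12-HHT), a lipid made in the cyclooxygenase pathway, and is known from skin and gut epithelium. No 12-HHT was added before or during the 18 h.

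Each RNA was mixed from 3 preparations and put on 1 array, so no line and step has replicate arrays. The step from 0 h to 18 h changed the medium along with calcium, and the sources do not say whether SMEM held serum. No array came from cells kept for 18 h in medium with calcium, so time in culture changed as well. The parts of calcium, medium, serum and time therefore cannot be told apart. Array medians lay between 7.16 and 7.27 on the log2 signal scale, and each array correlated with the others at a mean r of 0.945 to 0.96 over the genes tested. Of the kidney epithelial markers 8 of 9 with a probe set passed the signal filter, which asks for a signal above the table median of 7.21 on at least 2 arrays, and CDH16, at 6.83 to 7.00 on the 4 arrays, did not. Of markers of other cell types, 1 of 10 for fibroblasts, 4 of 11 for endothelium, 2 of 11 for leukocytes, 2 of 5 for neurons and glia and 1 of 6 for muscle passed. The summed signal of the epithelial markers was 14.71 in BLT2 and 14.78 in Mock cells at 18 h, against 14.70 in BLT2 and 14.54 in Mock cells at 0 h, as log2. The endothelial sum was 12.22 and 12.14 at 18 h in BLT2 and Mock cells, against 11.96 and 11.80 at 0 h, while PECAM1, CDH5 and KDR lay below the median on all arrays. CLDN5 lay above the median on 10 arrays, VWF on 3 and ESAM on 2. In that list FLT1, a receptor for VEGF, rose by 0.38 ± 0.10 (limma adjusted p = 0.0326, and up to 0.229 with 1 array left out), and its part in other results was not tested. The leukocyte sum was 9.53 and 9.52 at 18 h in BLT2 and Mock cells, against 9.69 and 9.64 at 0 h, and PTPRC, CD3E and CD4 lay below the median on all arrays. CD14 lay above the median on 9 arrays and CD8A on 2. CD14 measured 7.39 and 7.16 at 18 h in BLT2 and Mock cells, against 7.66 and 7.77 at 0 h. The muscle marker TNNT2 measured 9.53 and 9.22 at 18 h in BLT2 and Mock cells, against 9.78 and 9.47 at 0 h. In these bulk RNAs, fewer cells of a type and less RNA per cell cannot be told apart.

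A limma fit of line and step over all 10 arrays called 1579 genes higher (15% of those tested) and 1281 lower (12.2%) at 18 h. Changes of at least 2-fold in both lines were counted for 158 genes upward (1.51%) and 162 downward (1.54%), of which 155 and 157 were called. At least 4-fold in both lines were 14 genes upward and 12 downward. Within BLT2 cells 264 genes were higher and 258 lower by at least 2-fold, against 220 and 235 in Mock cells. The difference between the lines' changes, BLT2 minus Mock, stayed within 0.5 for 97.6% of genes, with an SD of 0.211. Taken instead from the lines' changes with 12-HHT after calcium return, on 4 other arrays, such a difference had an SD of 0.195. Across genes the 18 h changes of the lines correlated with r = 0.903, a description over 10498 genes that are not independent and come from 4 arrays. The calls depend on single arrays. Without the BLT2 18 h, BLT2 0 h, Mock 18 h or Mock 0 h array, 361, 574, 700 and 488 genes were called higher and 230, 379, 468 and 402 lower, and 510 genes were called in every fit that left out 1 array.

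**Figure D1:**
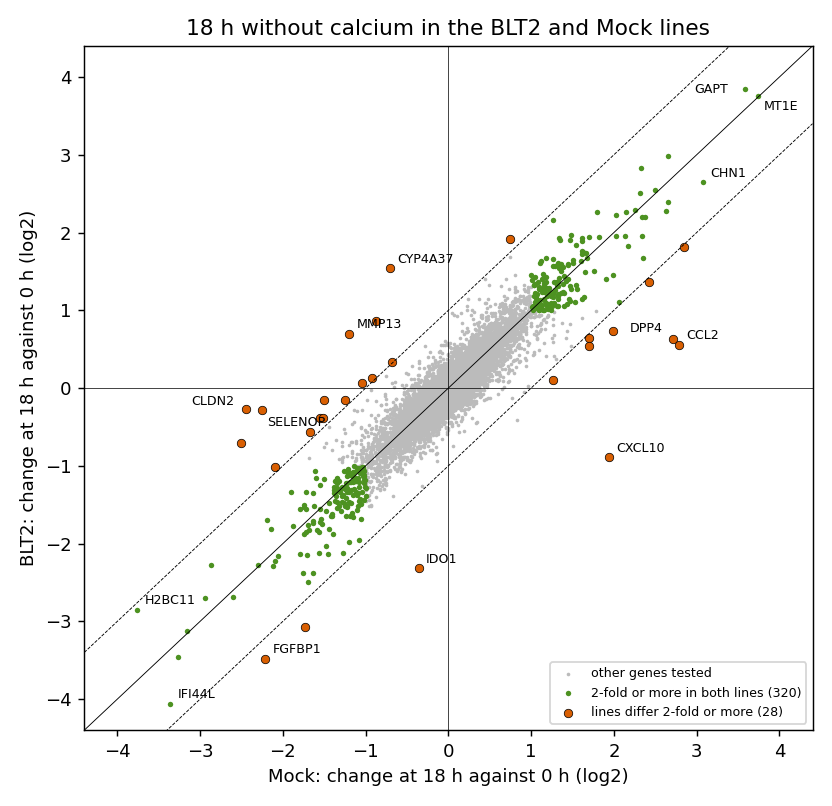
Change at 18 h against 0 h (log2) in BLT2 cells (vertical axis) and in Mock cells (horizontal axis), 1 point per gene tested. The solid line marks equal change and the dashed lines a 2-fold difference between the lines. The large orange points are the 28 genes with a signal above the table median whose changes differed at least 2-fold, and 5 of them are among the 320 genes that moved at least 2-fold in both lines.

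The 15 genes that rose most in both lines, ordered by the smaller of the lines' changes, were led by MT1E and GAPT. MT1E, a metallothionein that binds zinc and copper, measured 10.74 and 10.62 at 18 h in BLT2 and Mock cells, against 6.97 and 6.87 at 0 h. Its change was 3.75 ± 0.42 on the log2 scale (SE, limma adjusted p = 0.00221), and the 18 h arrays lay far above the 0 h arrays with no overlap. GAPT, the annotated name of an adaptor protein of immune cell signalling, measured 10.74 at 18 h against 6.90 at 0 h in BLT2 cells, and 10.78 against 7.20 in Mock cells. All 4 values sat near their partners in the other line, for a change of 3.71 ± 0.39 (limma adjusted p = 0.00207). PPP1R15A, the phosphatase subunit GADD34 that restarts translation after stress, measured 10.10 and 10.01 at 18 h in BLT2 and Mock cells, against 7.12 and 7.35 at 0 h, a rise of 2.82 ± 0.16. CHN1, a chimaerin that switches off Rac, measured 10.55 at 18 h against 7.90 at 0 h in BLT2 cells, and 10.50 against 7.42 in Mock cells, a rise of 2.86 ± 0.15 (limma adjusted p = 0.000616). In both genes the lines lay closer together at 18 h than at 0 h. SESN2, a sestrin that holds back mTORC1, rose by 2.53 ± 0.28. TP53INP1, a p53-induced protein, rose by 2.58 ± 0.32, and CDKN1A, the cyclin-dependent kinase inhibitor p21, rose by 2.29 ± 0.37. ARRDC4, an arrestin-domain relative of TXNIP that restrains glucose uptake, measured 10.29 and 10.26 at 18 h in BLT2 and Mock cells, against 7.78 and 7.96 at 0 h, and its rise of 2.41 ± 0.16 had a limma adjusted p of 0.000956. Others among the 15 at this end were the adhesion receptor ADGRG3 (2.52 ± 0.41), the dystrophin-complex protein SSPN (2.27 ± 0.28) and the fibrillar-associated collagen COL12A1 (2.45 ± 0.64). STYXL1, a phosphatase relative without activity, rose by 2.27 ± 0.22, the DNA repair exonuclease EXO5 by 2.21 ± 0.27, the Rac activator DOCK4 by 2.13 ± 0.31 and NFYB, a subunit of the CCAAT-box factor NF-Y, by 1.99 ± 0.28. CDKN1A (BLT2 18 h, 0.0582), ADGRG3 (BLT2 18 h or Mock 0 h, 0.0624) and COL12A1 (any of the 4 arrays compared, 0.2) were not called when 1 array named in brackets was left out, where the number is the highest limma adjusted p.

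**Figure D2:**
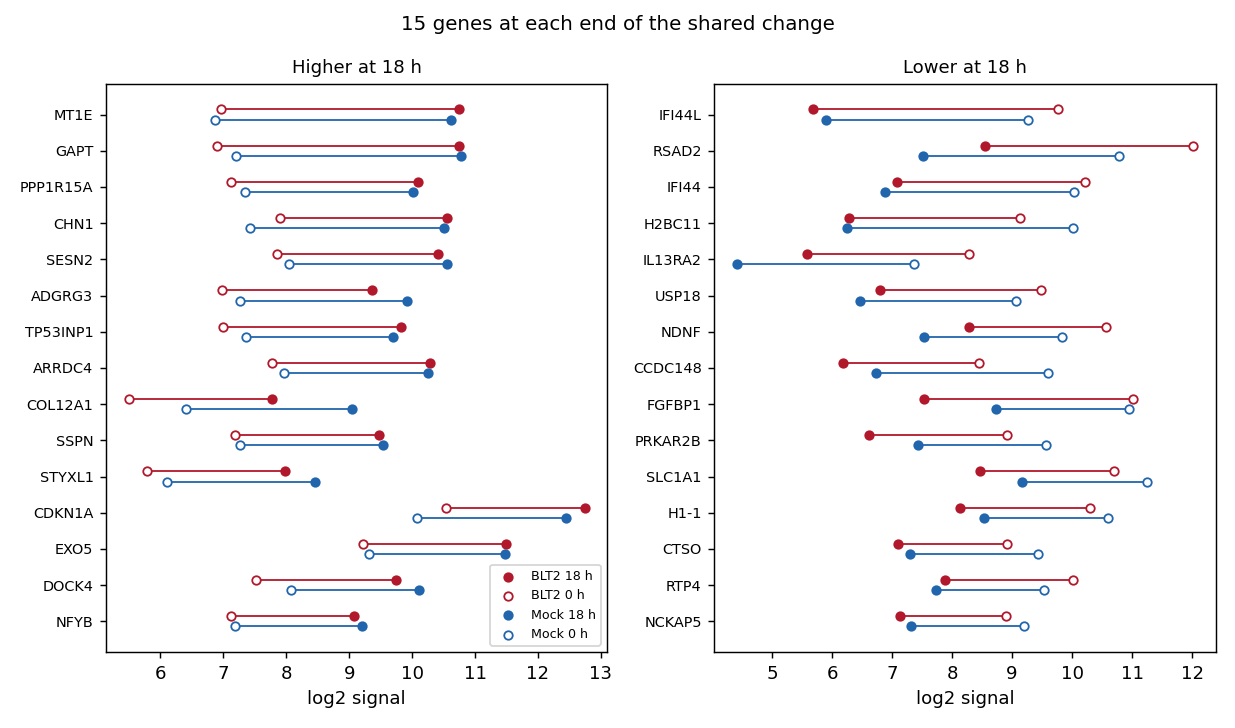
Log2 signal on each of the 4 arrays for the 15 genes at either end of the shared change, higher at 18 h on the left and lower on the right. Filled points are 18 h and open points 0 h, red for BLT2 and blue for Mock, and in every gene shown both 18 h points lie on the same side of both 0 h points. The genes were chosen by their change in both lines, so this separation is no independent support.

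The 15 genes that fell most in both lines were led by IFI44L and RSAD2. IFI44L, an interferon stimulated gene, measured 5.69 and 5.90 at 18 h in BLT2 and Mock cells, against 9.76 and 9.26 at 0 h. The 18 h values lay under the table median and the 0 h values well above it, so the change of -3.71 ± 0.55 (limma adjusted p = 0.00418) ended near the background of the array. RSAD2, the antiviral enzyme viperin, measured 8.55 at 18 h against 12.01 at 0 h in BLT2 cells, and 7.51 against 10.78 in Mock cells, a change of -3.37 ± 0.56, with the BLT2 array above the Mock array at both times. IFI44 fell by 3.14 ± 0.74 and USP18, which removes the interferon-induced modifier ISG15, fell by 2.65 ± 0.52. H2BC11, a histone H2B gene, measured 6.29 and 6.25 at 18 h in BLT2 and Mock cells, against 9.14 and 10.01 at 0 h, a change of -3.31 ± 0.27. The lines met at 18 h and differed at 0 h, Mock being the higher. H1-1, a linker histone, measured 8.13 at 18 h against 10.29 at 0 h in BLT2 cells, and 8.53 against 10.59 in Mock cells, a change of -2.11 ± 0.10 (limma adjusted p = 0.000616). Histone copies share sequence, so a probe set can report several of them. FGFBP1, a carrier that releases fibroblast growth factors from the matrix, measured 7.53 and 8.74 at 18 h in BLT2 and Mock cells, against 11.01 and 10.95 at 0 h. It fell by 2.84 ± 0.35, with changes of -3.48 in BLT2 and -2.21 in Mock cells. Also at this end were NDNF, a secreted neurotrophic factor (-2.28 ± 0.24), IL13RA2, a decoy receptor for interleukin 13 (-2.82 ± 0.45), PRKAR2B, a regulatory subunit of protein kinase A (-2.21 ± 0.26), and SLC1A1, a glutamate transporter (-2.16 ± 0.23). CCDC148 (-2.57 ± 0.52), the cathepsin CTSO (-1.97 ± 0.53), the interferon stimulated RTP4 (-1.96 ± 0.34) and NCKAP5 (-1.82 ± 0.39) completed the 15. RSAD2 (BLT2 18 h or Mock 0 h, 0.0669), IFI44 (BLT2 18 h, BLT2 0 h or Mock 0 h, 0.159), USP18 (BLT2 18 h or Mock 0 h, 0.103), IL13RA2 (BLT2 18 h, 0.062), CCDC148 (BLT2 18 h, Mock 18 h or Mock 0 h, 0.102), CTSO (any of the 4 arrays compared, 0.204), RTP4 (BLT2 18 h or Mock 0 h, 0.0728) and NCKAP5 (BLT2 18 h, Mock 18 h or Mock 0 h, 0.126) were not called when 1 array named in brackets was left out, where the number is the highest limma adjusted p.

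Signals at 2 h, set beside these as values, show different paths to the same 18 h level. PPP1R15A in BLT2 cells measured 7.12, 9.93 and 10.10 at 0, 2 and 18 h, and 7.35, 10.30 and 10.01 in Mock cells, so that most of its change was present at 2 h. MT1E was likewise at 11.07 in BLT2 and 11.32 in Mock cells at 2 h, above its 18 h signals. GAPT measured 6.90, 8.30 and 10.74 in BLT2 cells and 7.20, 7.87 and 10.78 in Mock cells, with the greater step after 2 h. H2BC11, at 8.96 in BLT2 and 10.19 in Mock cells at 2 h, and IFI44L, at 9.03 and 9.05, were still near their 0 h signals at that time. TP53INP1 differed between the lines at 2 h, with 8.35 in BLT2 and 7.32 in Mock cells, and measured 9.82 and 9.69 at 18 h. These times share the 0 h arrays, and no test was made between them.

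**Figure D3:**
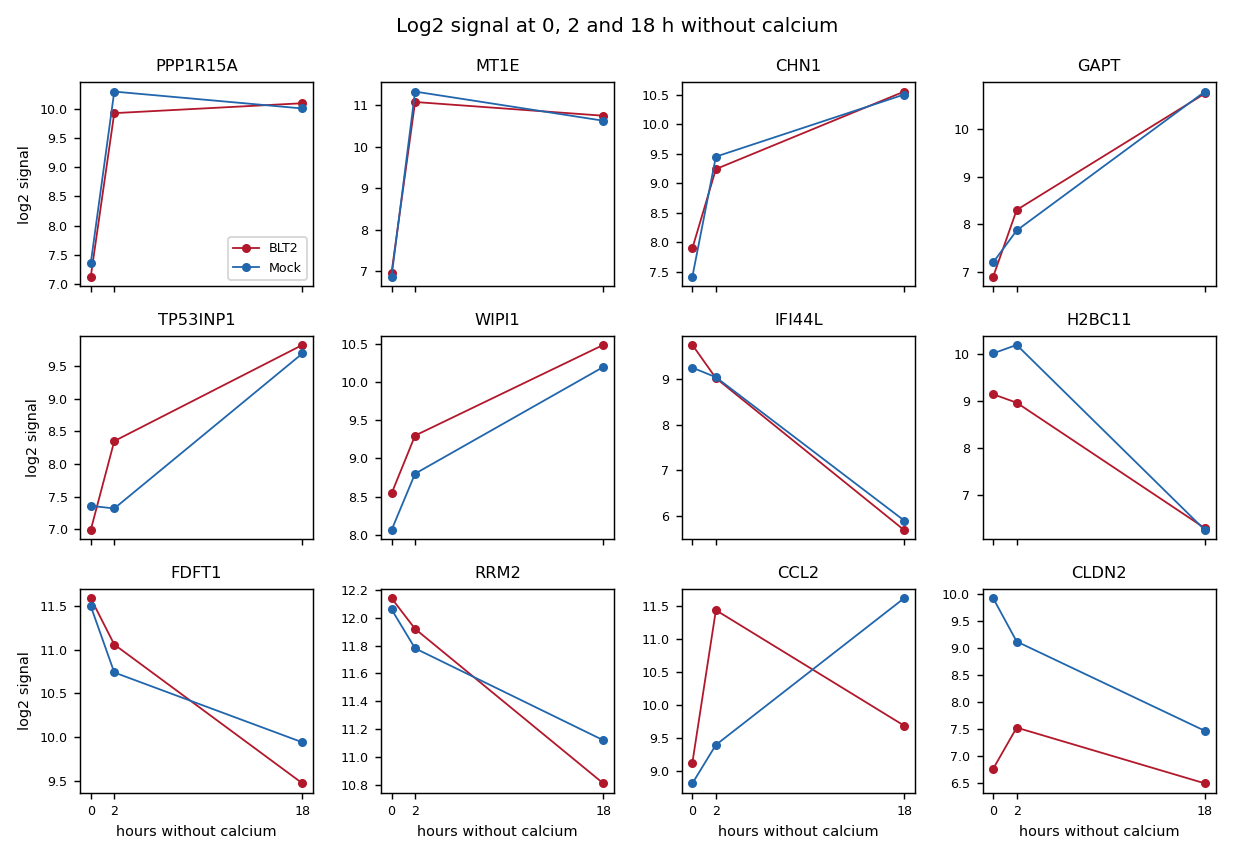
Log2 signal of 12 genes at 0, 2 and 18 h without calcium (horizontal axis to scale), 1 array per point, red for BLT2 and blue for Mock. PPP1R15A and MT1E were already high at 2 h, GAPT and WIPI1 were highest at 18 h, IFI44L, H2BC11, FDFT1 and RRM2 were lowest at 18 h in both lines, and in CCL2 and CLDN2 the lines took different courses.

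Of the genes tested, 1124 belong to at least 1 of 50 classes drawn up by function, in which 1556 members were listed, 1329 had a probe set and 1135 passed the filter, repeats counted. They hold 53 of the 158 genes that rose and 46 of the 162 that fell 2-fold in both lines, so most of the large changes lie outside the classes. Class counts are given against the 15% of all genes called higher and 12.2% called lower. They are followed, where a count moves by over 1.5 times, by the counts with 1 array left out, always in the order BLT2 18 h, BLT2 0 h, Mock 18 h, Mock 0 h, and called the leave-one-out counts. Counts under other filters or normalizations are given for some classes only, though others also moved by over 1.5 times. Where limma called 0 genes of a class in 1 direction, 0 to 2 had an unadjusted p under 0.05 there. The median change of all genes was 0.00723 in BLT2 and 0.0239 in Mock cells. Values with ± are fitted log2 changes with their SE from limma.

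**Figure D4:**
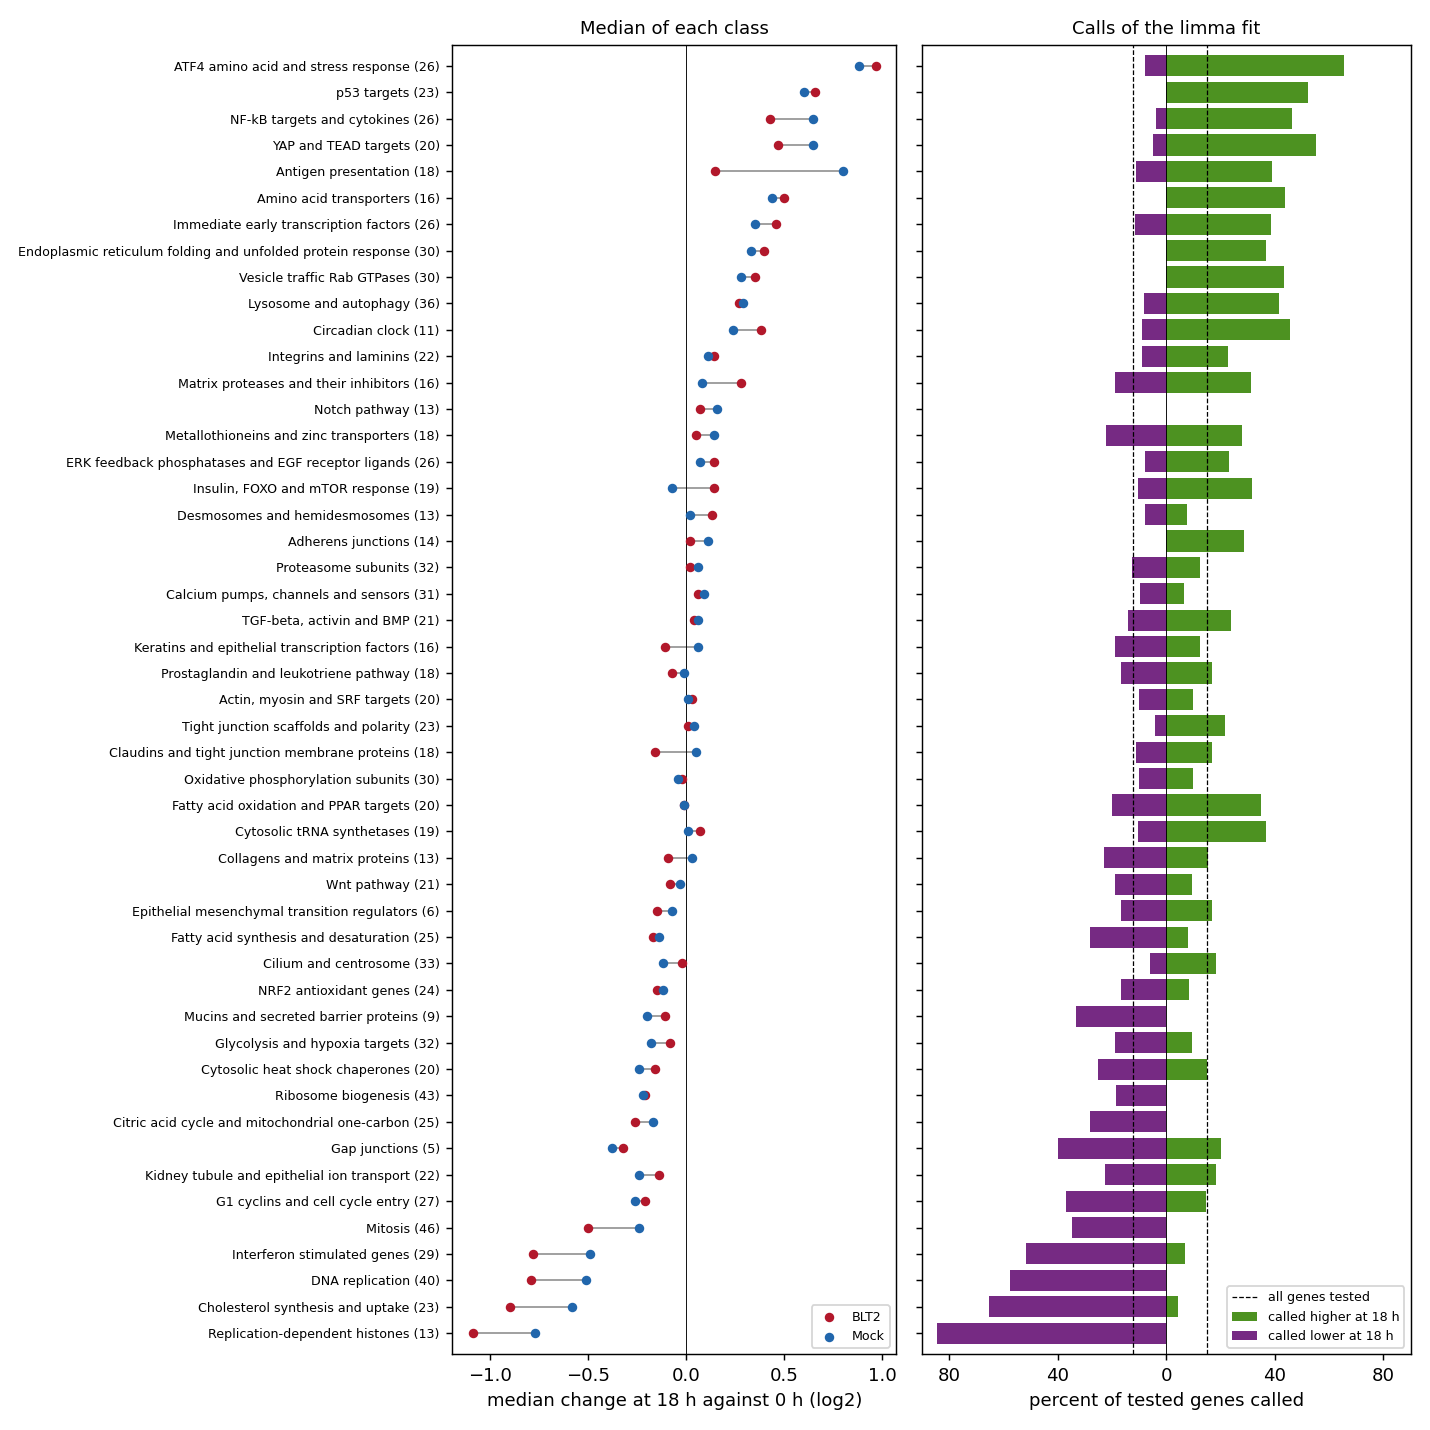
Left, median log2 change at 18 h against 0 h of each gene class reported, in BLT2 (red) and Mock (blue) cells, with the number of genes tested in brackets. Right, the percent of each class called higher (green) or lower (purple) by limma at 18 h, with dashed lines at 15% and 12.2% for all genes tested. The ATF4 class lies highest and the replication-dependent histones lowest in both panels.

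The response to amino acid and translation stress was the class with the highest median, 0.97 in BLT2 and 0.88 in Mock cells. Of 26 genes 17 rose, 10 of them 2-fold in both lines, and 2 fell. DDIT4, an inhibitor of mTORC1, measured 9.10 and 9.62 at 18 h in BLT2 and Mock cells, against 7.60 and 7.86 at 0 h, a rise of 1.63 ± 0.13 with no overlap between times (limma adjusted p = 0.00146). CHAC1, which degrades glutathione, rose by 1.57 ± 0.17. The 2 that fell were CBS (-0.97 ± 0.21) and CTH (-0.61 ± 0.12), the enzymes that pass sulfur from homocysteine to cysteine. Their leave-one-out counts were 0, 1, 1 and 0. PSAT1, an enzyme of serine synthesis, had the greatest line difference of the class, with 1.01 in BLT2 and 0.29 in Mock cells. Of 16 amino acid transporters 7 rose and 0 fell, with leave-one-out counts of 2, 3, 3 and 3. The glycine transporter SLC6A9 measured 10.18 at 18 h against 8.42 at 0 h in BLT2 cells, and 10.41 against 8.80 in Mock cells, a rise of 1.69 ± 0.09 (limma adjusted p = 0.000616). SLC1A4, which carries alanine, serine and cysteine, rose by 1.08 ± 0.16, SLC3A2, the heavy chain of several amino acid exchangers, by 0.84 ± 0.14 and SLC7A11, the cystine transporter, by 0.70 ± 0.15. Of 19 cytosolic tRNA synthetases, the enzymes that charge tRNAs with amino acids, 7 rose, led by WARS1 (0.65 ± 0.12), and 2 fell, FARSA and VARS1. The class median was 0.07 in BLT2 and 0.01 in Mock cells, and the leave-one-out counts were 1, 0, 0 and 1 higher and 0, 0, 0 and 1 lower, with 4 higher without any 1 of the arrays of calcium return, 2 without the filter on low values and 4 after median centring. CBS (BLT2 18 h, Mock 18 h or Mock 0 h, 0.13), CTH (BLT2 18 h, BLT2 0 h or Mock 0 h, 0.0976), SLC3A2 (BLT2 18 h or Mock 0 h, 0.0722), SLC7A11 (BLT2 18 h, BLT2 0 h or Mock 18 h, 0.098) and WARS1 (BLT2 0 h or Mock 18 h, 0.0794) were not called when 1 array named in brackets was left out, where the number is the highest limma adjusted p.

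In the endoplasmic reticulum, 11 of 30 genes of folding and the unfolded protein response rose and 0 fell, with leave-one-out counts of 3, 3, 6 and 3. Without the filter on low values 7 were called higher. DNAJB9, a helper of the chaperone BiP, measured 11.31 and 11.09 at 18 h in BLT2 and Mock cells, against 9.40 and 9.63 at 0 h, a rise of 1.69 ± 0.26 (limma adjusted p = 0.00481). ERN1, the stress sensor IRE1, rose by 1.17 ± 0.16 and XBP1, the transcription factor whose mRNA it splices, by 0.93 ± 0.09. Both lines changed almost equally in XBP1, 0.92 in BLT2 and 0.93 in Mock cells. In the cytosol the chaperones divided. HSPB8 (1.23 ± 0.18), HSPB1 (1.14 ± 0.21) and DNAJB4 (1.00 ± 0.14) rose, while HSPH1, a nucleotide exchange factor of HSP70, fell by 1.64 ± 0.18. The other 4 of 5 that fell were HSP90AA1, HSP90AB1 and the HSP90 partners AHSA1 and FKBP4, and the leave-one-out counts of the 5 were 1, 1, 1 and 3. Of the 20 chaperones tested 15% rose and 25% fell. HSPB1 was not called without the BLT2 0 h or Mock 18 h array (limma adjusted p up to 0.0674).

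Of 5 zinc exporters of the SLC30 family 3 rose and 0 fell, and of 10 importers of the SLC39 family 0 rose and 4 fell, a grouping made after the values were seen. The exporters SLC30A1 (1.08 ± 0.20), SLC30A7 (0.90 ± 0.09) and SLC30A6 rose, with MT1E and MTF1, the zinc-sensing transcription factor (0.49 ± 0.12). The importers SLC39A10 (-0.78 ± 0.20), SLC39A6 (-0.53 ± 0.10), SLC39A14 (-0.49 ± 0.13) and SLC39A1 (-0.42 ± 0.10) fell. These 5 and 4 were the calls among 18 genes, with leave-one-out counts of 2, 2, 3 and 2 and 0, 0, 0 and 0. After median centring 2 of the class were called lower. In SLC30A7, which loads zinc into the secretory pathway, the signals were 11.26 and 11.11 at 18 h in BLT2 and Mock cells, against 10.34 and 10.22 at 0 h, and the lines changed by 0.91 and 0.90. Among 24 antioxidant targets of NRF2, GCLM, which sets glutathione synthesis, fell by 0.93 ± 0.11, AKR1B1 fell by 0.75 ± 0.12 and the peroxiredoxin PRDX1 fell by 0.70 ± 0.10. With PGD, 4 fell (16.7%) and 2 rose (8.33%), SLC7A11 and the autophagy receptor SQSTM1. The leave-one-out counts of the 2 were 0, 0, 0 and 1. SLC30A1 (BLT2 18 h, BLT2 0 h or Mock 0 h, 0.0838), MTF1 (any of the 4 arrays compared, 0.146), SLC39A10 (any of the 4 arrays compared, 0.177), SLC39A6 (any of the 4 arrays compared, 0.0933), SLC39A14 (any of the 4 arrays compared, 0.177) and SLC39A1 (any of the 4 arrays compared, 0.179) were not called when 1 array named in brackets was left out, where the number is the highest limma adjusted p.

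Of 23 p53 targets 12 rose and 0 fell, with medians of 0.66 in BLT2 and 0.60 in Mock cells and leave-one-out counts of 4, 7, 7 and 7. CDKN1A measured 12.74 and 12.45 at 18 h in BLT2 and Mock cells, against 10.54 and 10.07 at 0 h, and ZMAT3, an RNA-binding target of p53, measured 12.28 at 18 h against 10.53 at 0 h in BLT2 cells, and 12.19 against 10.56 in Mock cells, a rise of 1.69 ± 0.17 (limma adjusted p = 0.00185). The 2 times did not overlap in either gene. Of 40 DNA replication genes 23 fell and 0 rose, with medians of -0.79 in BLT2 and -0.51 in Mock cells and leave-one-out counts of 7, 8, 8 and 22. RRM2, the regulated subunit of ribonucleotide reductase, measured 10.81 and 11.12 at 18 h in BLT2 and Mock cells, against 12.14 and 12.06 at 0 h, a change of -1.14 ± 0.12 (limma adjusted p = 0.00216). GINS4, a part of the replicative helicase, fell by 1.25 ± 0.13 and MCM5, another, fell by 1.07 ± 0.17. Each of these 3 changed more in BLT2 cells, with BLT2 minus Mock at -0.39, -0.36 and -0.41. Mitosis genes fell in 16 of 46 and rose in 0, with medians of -0.50 in BLT2 and -0.24 in Mock cells and leave-one-out counts of 5, 5, 7 and 13. DLGAP5, a spindle protein, fell by 1.04 ± 0.13, PTTG1, securin, fell by 1.02 ± 0.12, and CDC20, which activates the anaphase-promoting complex, fell by 0.99 ± 0.14. TTK, a spindle checkpoint kinase, was at -0.66 in BLT2 and -0.08 in Mock cells and was not called. CDKN1A (BLT2 18 h, 0.0582) and MCM5 (BLT2 18 h, 0.0546) were not called when 1 array named in brackets was left out, where the number is the highest limma adjusted p.

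Among 27 genes of G1 and cell cycle entry 10 fell and 4 rose, with leave-one-out counts of 2, 2, 4 and 5 lower and 1, 2, 3 and 2 higher. CDC25A, a phosphatase that activates cyclin-dependent kinases, fell by 1.24 ± 0.18 and CDC25C fell by 0.96 ± 0.10, while RB1, the retinoblastoma protein that holds cells in G1, measured 10.54 and 10.75 at 18 h in BLT2 and Mock cells, against 9.57 and 9.83 at 0 h, a rise of 0.95 ± 0.11. CCND2 (0.63 ± 0.13) and CDK6 (0.44 ± 0.09) also rose, and CCNE1, CDK2 and CDK4 were among those that fell. Replication-dependent histones fell in 11 of 13 and rose in 0, the highest share of any class, with medians of -1.09 in BLT2 and -0.77 in Mock cells. Without 1 array 8 to 11 were called. H2AC6 fell by 1.79 ± 0.11 and H2BC18 fell by 1.53 ± 0.11. Only 14 of the 62 histone genes listed had a probe set with that 1 symbol. Ribosome biogenesis fell in 8 of 43, 18.6%, and rose in 0, with leave-one-out counts of 1, 0, 0 and 6. The count was 5 after median centring and 14 with a filter at the 75th percentile. NCL, nucleolin, fell by 0.69 ± 0.13. CCND2 (BLT2 18 h, BLT2 0 h or Mock 0 h, 0.132), CDK6 (any of the 4 arrays compared, 0.127) and NCL (BLT2 18 h, BLT2 0 h or Mock 18 h, 0.0715) were not called when 1 array named in brackets was left out, where the number is the highest limma adjusted p.

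Of 23 genes of cholesterol synthesis and uptake 15 fell and 1 rose, with medians of -0.90 in BLT2 and -0.58 in Mock cells. FDFT1, squalene synthase, measured 9.47 and 9.94 at 18 h in BLT2 and Mock cells, against 11.59 and 11.50 at 0 h, a change of -1.84 ± 0.33 (limma adjusted p = 0.00801). INSIG1, a sterol-regulated brake on this pathway, measured 9.36 at 18 h against 11.50 at 0 h in BLT2 cells, and 9.73 against 11.18 in Mock cells, a change of -1.79 ± 0.38, and LSS, which closes the sterol ring, fell by 1.34 ± 0.26. The gene that rose was ABCA1 (0.53 ± 0.14), which exports cholesterol. The leave-one-out counts of the 15 were 0, 2, 11 and 2. In fatty acid synthesis 7 of 25 fell and 2 rose, with leave-one-out counts of 1, 5, 5 and 2 and 1, 2, 2 and 1. ACLY, which makes cytosolic acetyl-CoA, measured 10.63 and 10.72 at 18 h in BLT2 and Mock cells, against 12.01 and 11.87 at 0 h, a change of -1.26 ± 0.17, and FASN, fatty acid synthase, fell by 1.42 ± 0.23. The 2 that rose were FADS1 (1.71 ± 0.26), a desaturase, with 2.16 in BLT2 and 1.26 in Mock cells, and DGAT2 (1.03 ± 0.17), which makes triglycerides. FDFT1 (BLT2 18 h or Mock 0 h, 0.0668), INSIG1 (BLT2 18 h, BLT2 0 h or Mock 0 h, 0.103), LSS (BLT2 18 h or Mock 0 h, 0.104), ABCA1 (BLT2 18 h, BLT2 0 h or Mock 0 h, 0.218), FASN (BLT2 18 h, 0.0547), FADS1 (BLT2 18 h, 0.0561) and DGAT2 (Mock 0 h, 0.052) were not called when 1 array named in brackets was left out, where the number is the highest limma adjusted p.

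In fatty acid oxidation 7 of 20 genes rose and 4 fell, with leave-one-out counts of 1, 2, 2 and 1 higher and 1, 3, 2 and 1 lower. CPT1A, which lets fatty acids into mitochondria, measured 10.64 and 11.03 at 18 h in BLT2 and Mock cells, against 9.43 and 9.70 at 0 h, a rise of 1.27 ± 0.09 (limma adjusted p = 0.00125). DECR1, HADHA, ETFA and ETFB, enzymes of the oxidation itself, were among the 7, and the fatty acid carrier FABP3 fell by 1.06 ± 0.11. In the class named citric acid cycle and mitochondrial one-carbon 7 of 25 fell and 0 rose, with leave-one-out counts of 1, 2, 4 and 4. They were led by DLAT, a subunit of pyruvate dehydrogenase (-0.75 ± 0.11), and included the cytosolic enzymes MTHFD1, SHMT1 and GOT1. MTHFD2, a mitochondrial one-carbon enzyme that rose, was counted in the amino acid and translation stress class instead. Oxidative phosphorylation subunits rose in 3 and fell in 3 of 30, shares of 10% each that lie under those of all genes, and leaving out arrays gave 0, 0, 1 and 0 higher and 1, 0, 0 and 0 lower. Glycolysis and hypoxia targets rose in 3 and fell in 6 of 32. VEGFA, a growth factor for vessels, rose by 0.78 ± 0.10, and BNIP3, a mitophagy receptor, fell by 0.94 ± 0.16. The leave-one-out counts there were 1, 1, 2 and 2 and 0, 1, 1 and 0. Of 19 genes of the insulin and FOXO response, TXNIP, which binds thioredoxin and restrains glucose uptake, measured 12.90 at 18 h against 10.97 at 0 h in BLT2 cells, and 13.01 against 11.39 in Mock cells, a rise of 1.78 ± 0.24, and FBXO32, the FOXO-driven ubiquitin ligase atrogin-1, measured 7.88 and 7.93 at 18 h in BLT2 and Mock cells, against 5.99 and 6.31 at 0 h, a rise of 1.75 ± 0.15. In all 6 of these genes rose, IRS2 among them, and 2 fell, SGK1 and KLF15, with leave-one-out counts of 2, 3, 3 and 3 and 1, 0, 1 and 1, and with 4 lower without either array of calcium return alone. BNIP3 was not called without the BLT2 18 h or Mock 0 h array (limma adjusted p up to 0.0639).

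Of 36 lysosome and autophagy genes 15 rose and 3 fell, with medians of 0.27 in BLT2 and 0.29 in Mock cells and leave-one-out counts of 5, 4, 5 and 5 and 1, 3, 1 and 1. WIPI1, which binds the membrane of the forming autophagosome, measured 10.49 and 10.20 at 18 h in BLT2 and Mock cells, against 8.54 and 8.06 at 0 h, a rise of 2.05 ± 0.17 (limma adjusted p = 0.00146) with both 18 h arrays far above both 0 h arrays. MAP1LC3B, the LC3 protein joined to that membrane, rose by 0.82 ± 0.11, and ATG12, part of the machinery that joins it, by 0.78 ± 0.10. GABARAPL1, an LC3 relative, changed by 1.31 in BLT2 and 0.64 in Mock cells (0.97 ± 0.21). GLA, a lysosomal galactosidase, fell by 1.04 ± 0.13. Of 30 Rab GTPases and partners, switches of vesicle traffic, 13 rose and 0 fell, with leave-one-out counts of 1, 3, 3 and 3. Without the filter on low values 8 were called higher. RAB31 rose by 0.80 ± 0.10, RAB18 by 0.78 ± 0.12 and RAB2A by 0.63 ± 0.09, none of the class reaching 2-fold in both lines. The proteasome moved both ways, 4 of 32 up and 4 down, near the background, and in it PSMB6 fell by 0.96 ± 0.14. The proteasome had leave-one-out counts of 0, 1, 1 and 0 and 1, 1, 2 and 1. Of 11 circadian clock genes 5 rose and 1 fell, with leave-one-out counts of 1, 1, 4 and 2 and 0, 0, 1 and 0. NR1D2 (1.46 ± 0.25) and NR1D1 (1.05 ± 0.20), the REV-ERB repressors, led, the second with 1.40 in BLT2 and 0.70 in Mock cells. GABARAPL1 (BLT2 18 h, BLT2 0 h or Mock 18 h, 0.11), RAB18 (BLT2 18 h, 0.0515), RAB2A (BLT2 18 h, 0.0582), NR1D2 (BLT2 18 h or Mock 0 h, 0.0631) and NR1D1 (BLT2 18 h or BLT2 0 h, 0.0804) were not called when 1 array named in brackets was left out, where the number is the highest limma adjusted p.

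Among 18 claudins and tight junction membrane proteins 3 rose and 2 fell, 16.7% and 11.1%, near the background. The leave-one-out counts were 0, 0, 0 and 0 and 1, 2, 1 and 1. CLDN16, a claudin that passes magnesium and calcium, measured 7.75 and 9.94 at 18 h in BLT2 and Mock cells, against 10.12 and 11.59 at 0 h. Its change of -2.01 ± 0.27 (limma adjusted p = 0.00332) left BLT2 cells the lower at both times. F11R, the junctional adhesion molecule JAM-A, measured 10.32 at 18 h against 11.19 at 0 h in BLT2 cells, and 10.58 against 11.38 in Mock cells, a change of -0.84 ± 0.22, and CLDN12 rose by 0.45 ± 0.10. Of 23 scaffolds and polarity proteins 5 rose (21.7%) and CRB3, an apical polarity protein, fell (4.35%). Leave-one-out counts of this class were 3, 4, 4 and 3 and 0, 0, 0 and 0. AMOTL2, an angiomotin, measured 10.34 and 10.36 at 18 h in BLT2 and Mock cells, against 9.20 and 9.03 at 0 h, a rise of 1.23 ± 0.16, and PARD3B, a relative of the polarity protein PARD3, rose by 0.89 ± 0.10. In adherens junctions 4 of 14 rose and 0 fell, with leave-one-out counts of 2, 1, 0 and 0. These were CDH1, E-cadherin, CDH3, P-cadherin (0.87 ± 0.17), NECTIN2 (0.57 ± 0.13) and JUP, plakoglobin (0.39 ± 0.11). CDH1 measured 12.70 at 18 h against 12.26 at 0 h in BLT2 cells, and 12.84 against 12.22 in Mock cells, so the 2 times did not overlap though the rise was 0.53 ± 0.10. Desmosomal DSC3 rose by 0.85 ± 0.11 and PKP4 fell by 0.73 ± 0.10, the only calls among 13 desmosome and hemidesmosome genes. Both shares, 7.69% each, lay under the background. Of 5 genes in the gap junction list the connexin GJB5 rose, and the connexin GJB1 and PANX1 (-1.12 ± 0.26) fell. PANX1 is a pannexin, not a connexin. Leave-one-out counts of the list were 0, 1, 1 and 0 and 0, 1, 0 and 0. F11R (any of the 4 arrays compared, 0.21), CLDN12 (any of the 4 arrays compared, 0.148), CRB3 (any of the 4 arrays compared, 0.252), CDH3 (BLT2 18 h, Mock 18 h or Mock 0 h, 0.0777), NECTIN2 (BLT2 0 h, Mock 18 h or Mock 0 h, 0.112), JUP (any of the 4 arrays compared or 2 others, 0.218), CDH1 (BLT2 0 h, Mock 18 h or Mock 0 h, 0.0727) and PANX1 (any of the 4 arrays compared, 0.132) were not called when 1 array named in brackets was left out, where the number is the highest limma adjusted p.

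On the matrix side LAMB3, a laminin chain of epithelial basement membranes, measured 11.21 and 11.08 at 18 h in BLT2 and Mock cells, against 9.62 and 9.76 at 0 h, a rise of 1.46 ± 0.13 (limma adjusted p = 0.00146), and SDC4, a syndecan of focal adhesions, rose by 1.01 ± 0.10. With ITGAV, ITGA3 and ITGB1 these made 5 of 22 integrin and laminin genes that rose, and ITGB8 and SDC1 fell. The shares were 22.7% and 9.09%, and the leave-one-out counts were 3, 3, 2 and 2 and 0, 0, 1 and 0. Without either 2 h array 1 of the class was called lower. Among 16 proteases and inhibitors 5 rose and 3 fell. PLAT, tissue plasminogen activator, measured 9.45 at 18 h against 7.62 at 0 h in BLT2 cells, and 9.33 against 7.16 in Mock cells, a rise of 2.00 ± 0.13 (limma adjusted p = 0.000911), PLAU, urokinase, rose by 1.08 ± 0.18 and TIMP2 by 0.97 ± 0.11. SERPINE2, an inhibitor of such proteases, fell by 1.13 ± 0.24, with -0.76 in BLT2 and -1.50 in Mock cells. The leave-one-out counts were 3, 3, 2 and 2 and 0, 2, 0 and 0. VCAN, versican, fell by 1.37 ± 0.16, FN1, fibronectin, fell by 0.90 ± 0.13 and COL5A2 fell by 0.80 ± 0.10. They were the 3 that fell of 13 collagens and matrix proteins (23.1%). In this class 2 rose (15.4%), COL12A1 and the collagen cross-linking enzyme LOXL2, with leave-one-out counts of 1, 0, 0 and 0. SNAI2, the repressor Slug, measured 11.39 and 9.96 at 18 h in BLT2 and Mock cells, against 10.23 and 9.16 at 0 h, a rise of 0.98 ± 0.15, while VIM, vimentin, fell by 0.47 ± 0.11, the only calls among 6 regulators and markers of epithelial mesenchymal transition. That is 16.7% in each direction, near the background. PLAU (Mock 18 h or Mock 0 h, 0.0589), SERPINE2 (BLT2 18 h, Mock 18 h or Mock 0 h, 0.0901) and VIM (any of the 4 arrays compared, 0.157) were not called when 1 array named in brackets was left out, where the number is the highest limma adjusted p.

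Of 20 genes listed as targets of YAP and TEAD, through which the Hippo pathway acts, 11 rose and FJX1 fell. The medians were 0.47 in BLT2 and 0.65 in Mock cells, with leave-one-out counts of 6, 8, 9 and 7 higher. The 11 include the factors TEAD1 and TEAD4 themselves, and AMOTL2 and TGFB2, which are also counted in the scaffold and TGF-beta classes. LATS2, the Hippo kinase, measured 10.69 and 10.67 at 18 h in BLT2 and Mock cells, against 9.36 and 9.35 at 0 h, a rise of 1.32 ± 0.14 (limma adjusted p = 0.00207), and NUAK2 rose by 1.41 ± 0.20. Immediate early transcription factors rose in 10 of 26 and fell in 3, with leave-one-out counts of 5, 6, 9 and 4 and 0, 2, 1 and 0. JUN measured 11.90 at 18 h against 10.47 at 0 h in BLT2 cells, and 11.32 against 10.14 in Mock cells, a rise of 1.30 ± 0.12, ATF3 rose by 1.43 ± 0.14 and BTG2, an antiproliferative factor, by 1.32 ± 0.16. EGR1 changed by 1.68 in BLT2 and 0.74 in Mock cells. ID1, an inhibitor of helix-loop-helix factors, measured 9.13 and 9.32 at 18 h in BLT2 and Mock cells, against 11.28 and 11.02 at 0 h, a change of -1.93 ± 0.41. Of 26 ERK feedback and EGF receptor ligand genes 6 rose (23.1%) and 2 fell (7.69%). Their leave-one-out counts were 2, 2, 4 and 3 and 0, 1, 1 and 1. DUSP1, a phosphatase of MAP kinases, measured 10.93 at 18 h against 8.67 at 0 h in BLT2 cells, and 10.52 against 8.72 in Mock cells, a rise of 2.03 ± 0.16 (limma adjusted p = 0.00146), and HBEGF, an EGF receptor ligand, rose by 1.62 ± 0.23. Of 20 actin, myosin and SRF genes 2 rose and 2 fell, at 10% each, with leave-one-out counts of 0, 0, 0 and 0 and 0, 1, 0 and 0. FJX1 (any of the 4 arrays compared, 0.161) and ID1 (any of the 4 arrays compared, 0.102) were not called when 1 array named in brackets was left out, where the number is the highest limma adjusted p.

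Ligands and receptors of developmental pathways showed single changes. In the TGF-beta class, TGFB2 measured 11.21 and 11.15 at 18 h in BLT2 and Mock cells, against 10.13 and 10.06 at 0 h, a rise of 1.09 ± 0.09 that was 1.09 in each line (limma adjusted p = 0.00146). BMP4 fell by 1.27 ± 0.25 and FST, follistatin, which binds activin, fell by 1.64 ± 0.44. In all 5 of 21 rose and 3 fell, with leave-one-out counts of 1, 1, 3 and 3 and 0, 0, 2 and 0. In the Wnt pathway 2 of 21 rose and 4 fell, 9.52% and 19%. FZD5, a Wnt receptor, fell by 1.03 ± 0.11, and the leave-one-out counts of the class were 0, 1, 0 and 0 and 2, 3, 2 and 1. Of 13 Notch genes limma called 0, while 2 higher and 1 lower had an unadjusted p under 0.05, with a median of 0.07 in BLT2 and 0.16 in Mock cells, NRARP showing the greatest line difference, -0.02 in BLT2 and 0.24 in Mock cells. Kidney ion transport genes rose in 4 and fell in 5 of 22, 18.2% and 22.7%. The leave-one-out counts of these were 0, 1, 1 and 0 and 2, 3, 2 and 2. KCNN4, a calcium-activated potassium channel, fell by 0.96 ± 0.12, and CA2, a carbonic anhydrase, fell by 0.71 ± 0.12. Of 31 pumps, channels and sensors of calcium itself 2 rose and 3 fell, 6.45% and 9.68%, both under the background. TRPV4, a calcium entry channel, measured 9.56 at 18 h against 10.52 at 0 h in BLT2 cells, and 10.03 against 10.65 in Mock cells, a change of -0.79 ± 0.12, and the leave-one-out counts were 0, 1, 1 and 1 and 1, 1, 2 and 1. Cilium and centrosome genes rose in 6 of 33, among them BBS4 (1.07 ± 0.14) and IFT52 (0.87 ± 0.12), parts of ciliary transport, and fell in 2. These shares are 18.2%, near the background, and 6.06%, under it. The leave-one-out counts were 3, 4, 4 and 3 and 0, 0, 0 and 0, with 5 lower without either array of calcium return alone. SPP1, osteopontin, fell by 1.44 ± 0.24, with MUC20 and CEACAM1 the 3 that fell of 9 mucins and secreted barrier proteins, with leave-one-out counts of 0, 2, 3 and 0. BMP4 (BLT2 18 h, BLT2 0 h or Mock 0 h, 0.103), FST (any of the 4 arrays compared, 0.207), CA2 (BLT2 18 h, 0.0693) and SPP1 (BLT2 18 h or Mock 0 h, 0.0621) were not called when 1 array named in brackets was left out, where the number is the highest limma adjusted p.

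Immune genes did not move as one block. Interferon stimulated genes fell in 15 of 29 and rose in 2, with medians of -0.78 in BLT2 and -0.49 in Mock cells, 11 falling 2-fold in both lines, and leave-one-out counts of 6, 11, 16 and 7 lower and 1, 1, 1 and 1 higher. MX1, an antiviral GTPase, measured 8.23 and 7.94 at 18 h in BLT2 and Mock cells, against 10.35 and 9.21 at 0 h, a change of -1.69 ± 0.20 (limma adjusted p = 0.0024), with the BLT2 array the higher at both times. The 2 that rose were ISG20, an exonuclease (1.03 ± 0.16), and IRF1, a transcription factor of the interferon response (0.80 ± 0.18). NF-kB targets and cytokines rose in 12 of 26 and fell in 1, with medians of 0.43 in BLT2 and 0.65 in Mock cells and leave-one-out counts of 11, 7, 5 and 6. BIRC3, an inhibitor of cell death, measured 10.38 at 18 h against 8.57 at 0 h in BLT2 cells, and 10.48 against 7.63 in Mock cells, a rise of 2.33 ± 0.23 (limma adjusted p = 0.00174). RELB, a subunit of NF-kB, rose by 1.40 ± 0.18 and LIF, a cytokine of the interleukin 6 family, by 0.98 ± 0.13. The 1 that fell was CSF2 (-2.07 ± 0.55). Antigen presentation rose in 7 of 18 and fell in 2, with leave-one-out counts of 8, 1, 2 and 2 and 0, 2, 0 and 0. DLA-DQA1, a dog MHC class II chain, measured 10.30 and 11.77 at 18 h in BLT2 and Mock cells, against 8.35 and 9.42 at 0 h, a rise of 2.15 ± 0.30 in which Mock cells were the higher at both times. DLA-DRA rose by 1.45 ± 0.29; MHC copies share sequence and a probe set can report several. Of 18 genes of the prostaglandin and leukotriene pathway, which makes 12-HHT, 3 rose and 3 fell, 16.7% in each direction and near the background. PLA2G6 and the prostaglandin E2 receptors PTGER2 and PTGER4 rose, and PLA2G4A, the phospholipase that frees arachidonic acid, fell by 0.75 ± 0.17, with PTGES2 and LTA4H. The leave-one-out counts were 0, 1, 1 and 1 and 0, 0, 0 and 0, with 1 in either direction without any 1 of the calcium return arrays. ISG20 (BLT2 18 h, 0.0561), IRF1 (BLT2 0 h, Mock 18 h or Mock 0 h, 0.114), CSF2 (any of the 4 arrays compared, 0.218), DLA-DRA (BLT2 0 h or Mock 18 h, 0.0865) and PLA2G4A (any of the 4 arrays compared, 0.119) were not called when 1 array named in brackets was left out, where the number is the highest limma adjusted p.

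The lines disagreed in few genes. The 18 h changes differed by at least 2-fold in 28 genes, with a change higher in BLT2 cells in 16 (0.152%) and lower in 12 (0.114%), where a signal above the table median was required. The lines' changes with 12-HHT after calcium return, on 4 other arrays, differed by at least 2-fold in 10 genes. That is 0.0953% against 0.267% here, but it is another comparison, and no such signal was required there beyond the filter. With 1 array for each of the 4 cultures these differences have no test. In 21 of the 28 the lines changed in the same direction and differed in size, 9 were called by limma, and 5 are also among the 320 genes that moved 2-fold in both lines. The lines lay at least 2-fold apart at 0 h only in 8 genes, at 18 h only in 7, at both times in 8 and at neither in 5. Just inside the limit were BIRC3, at -1.04, and B3GALNT1, at 1.02, and just outside were EGLN3, at -0.97, and CCNDBP1, at 0.95.

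In 9 of the 16 genes with a higher change in BLT2 cells, both BLT2 signals lay under the table median of 7.21 and the Mock 0 h array was the highest of the 4. Whether low signals hid a change there was not tested. CLDN2, the claudin that forms a pore for sodium and water, measured 6.50 and 7.47 at 18 h in BLT2 and Mock cells, against 6.77 and 9.92 at 0 h. Mock cells began with the highest of the 4 signals and changed by -2.45, while BLT2 cells changed by -0.27. SELENOP, a selenium carrier, measured 5.64 at 18 h against 5.91 at 0 h in BLT2 cells, and 6.93 against 9.18 in Mock cells, with only the Mock 0 h array above the median. EGF, the growth factor, was at 6.67 and 7.91 at 18 h in BLT2 and Mock cells, against 6.82 and 9.41 at 0 h. COL28A1, a collagen, measured 5.35 and 5.84 at 18 h in BLT2 and Mock cells, against 6.06 and 8.35 at 0 h, and in LSAMP, a neuronal adhesion protein, the changes were -0.39 in BLT2 and -1.55 in Mock cells. TMEM45B, CA4, ABCA5 and OR10AD1P were the other members with this form. At 2 h BLT2 cells measured 8.24 in SELENOP, 8.36 in EGF, 7.53 in CLDN2 and 7.49 in ABCA5, above the table median. In COL28A1, LSAMP, TMEM45B, CA4 and OR10AD1P their 2 h signal stayed under it.

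Each of the other genes of this group had a BLT2 signal above the table median at 0 h or 18 h. STEAP1, of a family of metalloreductases, measured 8.94 and 6.95 at 18 h in BLT2 and Mock cells, against 9.33 and 8.47 at 0 h, with BLT2 cells the higher at both times and changes of -0.38 in BLT2 and -1.52 in Mock cells. DHRS9, a retinol dehydrogenase, changed by -1.02 in BLT2 and -2.09 in Mock cells. PTGS2, the cyclooxygenase COX-2 whose pathway yields 12-HHT, measured 9.98 at 18 h against 10.13 at 0 h in BLT2 cells, and 9.68 against 10.93 in Mock cells. The changes were -0.15 in BLT2 and -1.25 in Mock cells, and at 2 h it had been at 11.74 in BLT2 and 12.28 in Mock cells, above all 4 of those values. SYTL2, a synaptotagmin-like protein that binds Rab27, rose by 1.33 ± 0.34, with changes of 1.92 in BLT2 and 0.74 in Mock cells, and the lines met at 8.40 and 8.56 at 18 h. SYTL2 was not called without the BLT2 18 h, BLT2 0 h or Mock 18 h array (limma adjusted p up to 0.165).

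The 12 genes with a lower change in BLT2 cells included inflammatory genes with the greater positive change in Mock cells. CCL2, a chemokine for monocytes, measured 9.69 and 11.61 at 18 h in BLT2 and Mock cells, against 9.13 and 8.82 at 0 h, a change of 0.56 in BLT2 and 2.79 in Mock cells. The Mock 18 h array stood above the other 3, but at 2 h the order was the reverse, with 11.43 in BLT2 and 9.40 in Mock cells. After calcium return without 12-HHT, CCL2 measured 11.86 in BLT2 and 9.59 in Mock cells. Its BLT2 18 h signal thus lay under those at 2 h and after return. The same held for CXCL10 and IDO1, but in GBP6 the BLT2 18 h signal lay above that at 2 h. DPP4, a membrane peptidase, measured 5.38 at 18 h against 4.75 at 0 h in BLT2 cells, and 7.86 against 5.15 in Mock cells, so that only the Mock 18 h signal was above the table median. BIRC3, GBP6, an interferon-induced GTPase, and PSMB9, an immunoproteasome subunit, changed by 1.81, 0.73 and 0.10 in BLT2 cells, against 2.85, 1.99 and 1.26 in Mock cells. In BIRC3 and GBP6 the level in BLT2 minus Mock was -0.10 and -0.19 at 18 h, against 0.94 and 1.07 at 0 h. The epithelial transcription factor GRHL3, the collagen receptor DDR2 and the oxidase CYP1A1 changed by 0.65, 1.36 and 0.54 in BLT2 cells, against 1.70, 2.42 and 1.70 in Mock cells, and limma called GRHL3 and DDR2 but not CYP1A1. GRHL3 lost its call in 3 of the fits that left out 1 array, with a limma adjusted p up to 0.168 without the Mock 0 h array. In another 3 the change was more negative in BLT2 cells. IDO1, which degrades tryptophan, measured 8.54 and 7.48 at 18 h in BLT2 and Mock cells, against 10.87 and 7.84 at 0 h, a change of -2.32 in BLT2 and -0.36 in Mock cells from unequal starts. TRPA1, a cation channel, changed by -3.07 in BLT2 and -1.73 in Mock cells, and FGFBP1 by -3.48 and -2.21. As classes, antigen presentation had medians of 0.15 in BLT2 and 0.80 in Mock cells, the widest gap between the lines in the plot of class medians.

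In 4 genes (0.0381% of those tested) the lines moved in opposite directions by at least 0.5 each. CXCL10, a chemokine of the interferon and NF-kB response, measured 7.50 and 8.76 at 18 h in BLT2 and Mock cells, against 8.39 and 6.83 at 0 h. BLT2 cells were the higher at 0 h and Mock cells at 18 h, with changes of -0.89 in BLT2 and 1.94 in Mock cells. MMP13, a collagenase, measured 10.50 at 18 h against 9.80 at 0 h in BLT2 cells, and 7.85 against 9.05 in Mock cells, so the gap between the lines widened to 2.65 at 18 h, against 0.75 at 0 h, BLT2 cells being the higher. CYP4A37, a fatty acid hydroxylase of the cytochrome P450 family, measured 9.46 and 10.93 at 18 h in BLT2 and Mock cells, against 7.92 and 11.64 at 0 h, and the gap narrowed. OR10AD1P, annotated as an olfactory receptor pseudogene, measured 6.34 at 18 h against 5.48 at 0 h in BLT2 cells, and 8.09 against 8.98 in Mock cells, with both BLT2 signals under the median. These are single arrays and the differences were not tested.

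**Figure D5:**
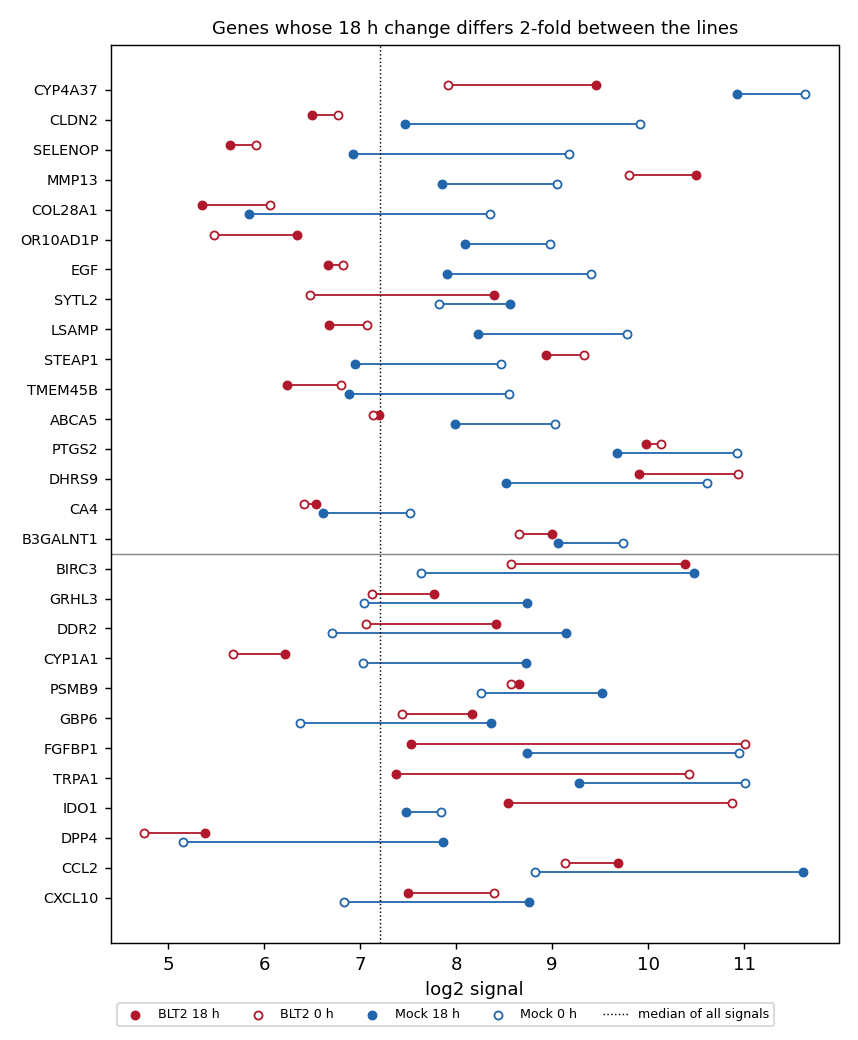
Log2 signal on each of the 4 arrays for the 28 genes whose 18 h change differed at least 2-fold between the lines, ordered by BLT2 minus Mock, with the grey line between higher and lower changes in BLT2. Filled points are 18 h and open points 0 h, red for BLT2 and blue for Mock, and the dotted line is the table median of 7.21, under which both BLT2 points of CLDN2, SELENOP, EGF and COL28A1 lie.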

How the data were processed

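Total RNA of MDCK cells was labelled and hybridised to GeneChip Canine Gene 1.0 ST arrays, 1 array for each of 2 lines at 5 steps, with RNA mixed from 3 preparations, per the labels' protocols and design text. The deposited table holds normalized values that read as log2 signals from 1.55 to 14.1. Per the submitters' processing notes the software was Affymetrix Expression Console, with GCRMA. GCRMA adjusts background for probe sequence and gives probe values one distribution across arrays before they are summarised. Array medians of the deposited values still ranged from 7.16 to 7.27. Software versions are not given in the sources used here. A shift of all transcripts together would not be seen after such a step, and changes of dim probe sets may be compressed, which was not measured.

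Of 32391 probe sets, 16545 had 1 gene symbol in the platform annotation, 370 had several and 15476 had none. They gave 15947 genes, of which 516 had several probe sets and were represented by the probe set with the highest mean. Kept were 10498 genes with a signal above the table median on at least 2 arrays. Columns were matched to samples by name, and 0 were left over. No further normalization was applied.

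The 18 h change was fitted in limma 3.58.1 under R 4.3.3 with additive terms of line and step over all 10 arrays, which leaves 4 residual degrees of freedom, moderated by a prior of 3.46. Its error holds array noise and differences in response between the lines, and the number of arrays limits the precision. P-values were adjusted by Benjamini-Hochberg over all genes tested, with a threshold of 0.05. The fit was tested on simulated arrays with known changes. Each line's change and the difference between the lines, BLT2 minus Mock, come from single arrays and have no test. A gene counted as 2-fold at a log2 size of 1 and as opposite at 0.5 in each line.

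The arrays, the 50 classes and the marker lists were chosen with earlier results of these data known, so no list is independent support for its direction. Named are the 15 genes at each end called and 2-fold in both lines, ordered by the smaller of the lines' changes, 10 genes at each end by line difference, all opposite genes, and in each class up to 4 called genes at each end and the member with the greatest line difference. Only part of them is printed, and further genes that a small count needed were named after their values were seen. Since these values chose the genes, a lack of overlap between 18 h and 0 h arrays in them is description only. Alternatives were other filters and normalizations, averaging over probe sets, other sets of arrays, an intensity trend, other sizes, and leaving out each array in turn. Promoter sequence was not used here. The values of 1 class are not reported here.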

Additional observations from a re-analysis of the deposited data

Results flagged for a closer look

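In 4 genes the lines moved in opposite directions over the 18 h, as far as 1 array per culture can show. The difference BLT2 minus Mock was -2.83 in CXCL10, a chemokine, 1.75 in OR10AD1P, annotated as an olfactory receptor pseudogene, 2.25 in CYP4A37, a cytochrome P450, and 1.90 in MMP13, a collagenase. In OR10AD1P both BLT2 signals, 6.34 at 18 h and 5.48 at 0 h, lay under the table median. Its BLT2 change of 0.86 was therefore read from dim signals only. The difference was not tested in any of the 4 genes.

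Among 6498 probe sets that passed the signal filter without carrying a single gene symbol, 172 changed by at least 2-fold in the same direction in both lines, 51 upward and 121 downward. This is 2.65% of them, against 3.05% of the named genes, and their genes were not analysed here.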

How the results depend on the processing

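Without the filter on low values, with a filter at the 75th percentile, after quantile normalization or median centring, or with an average over probe sets, the counts of genes called by limma, 2-fold in both lines and different between the lines stayed within 1.5 times of those reported. The counts called by limma also did so with the 6 arrays before calcium return and with an intensity trend, which do not bear on counts by size. Of 100 class counts, 19 moved by over 1.5 times without the filter, all down, 12 after median centring, all down, 13 with the filter at the 75th percentile, 3 after quantile normalization, 1 with an average over probe sets, and 5 with the trend, 21 with the 6 arrays and 49 with only the 4 arrays, all up. Only the 4 arrays compared gave 2856 genes higher and 2604 lower; the cause was not tested. Leaving out 1 array gave 361 to 1704 higher and 230 to 1444 lower, with the low counts where 1 of the 4 compared arrays was missing. A limit of 0.58 gave 696 genes higher and 674 lower in both lines, and 84 higher and 69 lower in BLT2 against Mock, and a limit of 1.5 gave 35, 38, 6 and 4, as a lower or higher limit must. Of 328 named genes 291 were called and 93 stayed so without each array in turn. Calls were lost for 180 without the BLT2 18 h, 135 without the BLT2 0 h, 124 without the Mock 18 h and 158 without the Mock 0 h array, 33 without the filter, 24 after median centring and 5 after quantile normalization, and 0 changed direction. Counts by size need all 4 arrays, so leaving 1 out gives them no value. No paired analysis was possible because each line and step has 1 array and the labels carry no replicate numbers, beyond the term of line in the fit. A search of promoter motifs was not run.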

Other observations

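Some close relatives moved in opposite directions at 18 h, in pairs picked after their values were seen and not counted against those that moved together. FADS1 rose by 1.71 ± 0.26 (SE of the limma fit) while FADS2, its neighbour in the synthesis of polyunsaturated fatty acids, fell by 1.35 ± 0.24. ESRP1 rose by 0.69 ± 0.12 and ESRP2, the other epithelial splicing regulator, fell by 0.67 ± 0.18. CPT1A rose by 1.27 ± 0.09 and CPT2, which acts after it on the inner mitochondrial membrane, fell by 0.75 ± 0.18. SDC4 rose by 1.01 ± 0.10 and SDC1, another syndecan, fell by 0.56 ± 0.13. IFT52 and IFT20 rose by 0.87 ± 0.12 and 0.65 ± 0.17, and IFT57, of the same ciliary transport complex, fell by 0.52 ± 0.11. Of these, CPT1A, SDC4 and IFT52 were called by limma without each array in turn. Leaving out the BLT2 18 h array ended the call of FADS1 (limma adjusted p = 0.0561), and the other 7 genes were not called without at least 1 array (limma adjusted p up to 0.214).

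The keratin and epithelial transcription factor class, not described above, had 2 of 16 genes higher and 3 lower. The share called higher, 12.5%, lay under the 15% of all genes tested. The share called lower, 18.8%, lay above the 12.2% of all genes, but rests on these 3 genes. KRT80 measured 10.78 and 10.12 at 18 h in BLT2 and Mock cells, against 9.95 and 9.21 at 0 h, a rise of 0.87 ± 0.17. PAX8 and PAX2, transcription factors of kidney development, fell by 0.57 ± 0.12 and 0.39 ± 0.10. Without 1 array 0 to 2 were called higher and 0 to 3 lower, 0 in both directions without the BLT2 18 h or the Mock 0 h array.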
